A study of Rattus norvegicus with 2 samples.

Results

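The axoneme and intraflagellar transport genes were taken as every gene whose symbol begins with Cfap, Dnah, Dnai, Rsph, Tekt, Drc or Ift followed by a digit. This gave 67 of the 25399 genes listed for the series, and none of these symbols was listed more than once. The 54 motile axoneme genes were 27 Cfap, 10 Dnah, 2 Dnai, 7 Rsph, 5 Tekt and 3 Drc genes, and the other 13 were Ift genes. Per the study's methods the cells came from mixed primary cultures of rat optic nerve glia, although GEO's design text speaks only of digested nerve, and they were sequenced from the 3′ end in 2 libraries, 1 from WT (Sprague Dawley) rats and 1 from Nuc1 rats, which carry a spontaneous insertion in Cryba1, the gene for βA3/A1-crystallin. GEO's label gives postnatal day 7 for both libraries (the methods name younger pups for such cultures), neither had a treatment, and the number of animals behind each is not given in the sources used here. With 1 library per genotype there was no replicate of either genotype, so no difference between the libraries or the cell groups was tested, and every interval below covers counting error of unique molecular identifiers (UMIs) only.

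A motile cilium is built on an axoneme, a ring of doublet microtubules around a central pair. Rows of dynein arms on the doublets drive bending, with heavy chains encoded by Dnah genes and intermediate chains by Dnai genes. Radial spokes (Rsph), the nexin-dynein regulatory complex (Drc), the tektins inside the doublet wall (Tekt) and many cilia and flagella associated proteins (Cfap) shape and control that movement. Intraflagellar transport, by contrast, carries cargo along the axoneme of motile and of primary cilia alike, and its Ift proteins form the IFT-A and IFT-B complexes. In the nervous system, ependymal and choroid plexus cells carry bundles of motile cilia, whereas astrocytes and fibroblasts usually carry at most a single primary cilium.

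The WT library held 34517542 UMIs in 2107 barcodes and the Nuc1 library 35794685 UMIs in 1929 barcodes. After filtering, 1961 WT and 1780 Nuc1 cells remained, with a median of 14050 and 16567.5 UMIs per cell, and 2 barcodes occurred in both libraries. Cells were clustered without the 67 genes, and the clusters were named from other marker genes. The ciliated group was a single cluster led by Dynlrb2, Ccdc153 and Tppp3, and held 14 WT cells (0.714% of the cells) and 94 Nuc1 cells (5.28%). The astrocyte-like cluster, led by Gfap, Hspb1 and Fabp7, held 109 and 359 cells, and the 5 collagen-rich clusters together 1741 and 1263 cells. An unnamed cluster led by Ttr and Gldn (cluster 8) held 22 and 32 cells, of which the WT cells had 0 UMIs of Ttr and a choroid plexus marker sum of 10.7 UMIs per 1000000 against 57505 in Nuc1, so the cells of the 2 libraries in this cluster differed. Small macrophage-like (26 and 22 cells) and oligodendrocyte-lineage-like (49 and 10 cells) groups completed the set. Since ciliated markers separated the ciliated cluster, higher levels there of genes that vary with those markers are a description. Cryba1 itself had 0 UMIs in the cells of both libraries, which allows up to 0.0887 UMIs per 1000000 in WT and 0.0866 in Nuc1, so it could not check the genotype labels.

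Levels are raw UMIs summed over the cells of a group, per 1000000 UMIs of that group (counts per 1000000, CPM). One UMI stands for 1 captured 3′ end, so the values are not scaled by transcript length, and an order of genes is an order of captured molecules. In ciliated cells the 54 motile axoneme genes summed to 9625 CPM in WT (95% interval 9321 to 9937, 3781 UMIs) and to 9885 in Nuc1 (9746 to 10025, 19342 UMIs). The 13 intraflagellar transport genes summed to 2968 CPM in WT (2800 to 3144) and 2515 in Nuc1 (2446 to 2587). In astrocyte-like cells the same sums were 664 and 811 CPM for the motile genes and 606 and 580 for the transport genes. In collagen-rich cells they were 341 and 340 for the motile genes and 480 and 484 for the transport genes. Motile genes thus outnumbered transport genes in the UMIs of ciliated cells, these sums lay closer together in astrocyte-like cells, and transport genes gave more UMIs than motile genes in collagen-rich cells of both libraries.

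**Figure D1:**
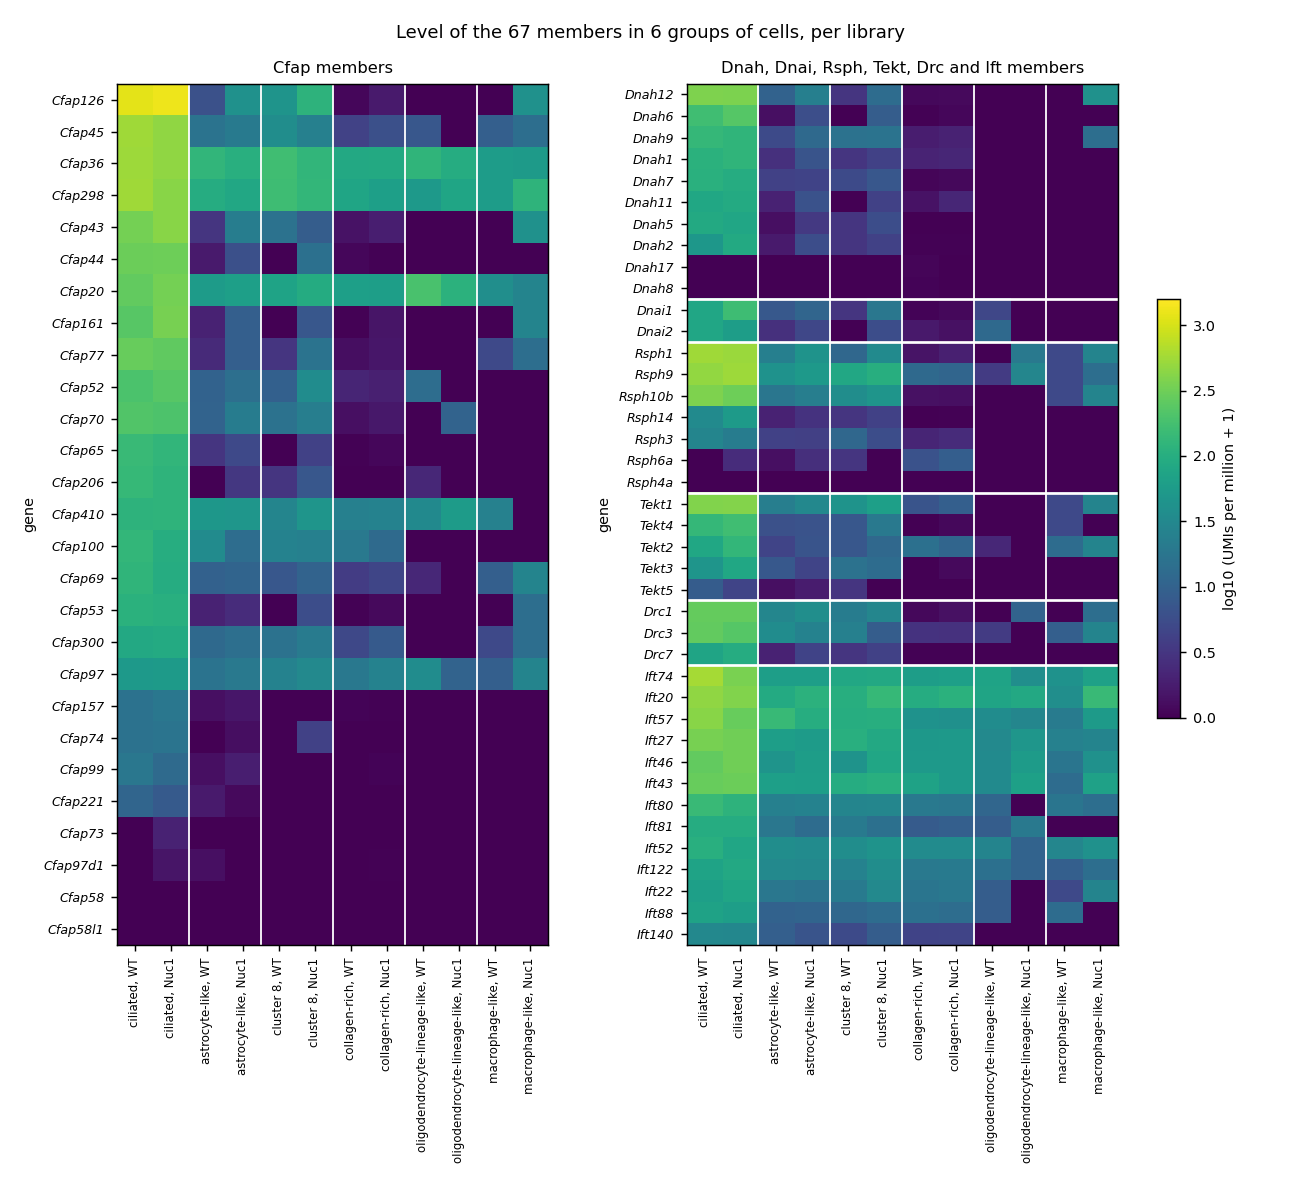
Level of each of the 67 genes (rows) in 6 groups of cells and 2 libraries (columns), as log10 of CPM plus 1; white lines separate cell groups and gene families. The 2 ciliated columns are the brightest in nearly every row, Ift genes and a few Cfap genes are seen in all groups, and most Dnah rows are dark outside the ciliated columns.

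Cfap126, also known as Flattop and found at the base of motile cilia, had the highest level of all 67 genes, with 1171 CPM in WT and 1326 in Nuc1 ciliated cells. It was detected in 14 of 14 WT and 94 of 94 Nuc1 ciliated cells, but in 9 of 109 and 82 of 359 astrocyte-like cells. Next among the Cfap genes in Nuc1 were Cfap45, a protein inside the doublet microtubules, at 550 CPM in WT and 470 in Nuc1, and Cfap36 at 532 and 459. In WT the next was Cfap298, which is needed to assemble dynein arms, at 557 CPM in WT and 429 in Nuc1. Cfap43 and Cfap44, which tether an inner dynein arm to the doublet, had 341 and 431 and 298 and 309 CPM. Cfap161, another protein of the doublet interior, had 232 in WT and 344 in Nuc1, and Cfap20 had 270 and 335. The order of levels was much alike in both libraries: across the 44 motile genes with at least 20 ciliated UMIs, the log2 levels of WT and Nuc1 had a Pearson correlation of 0.97, which describes genes that share the 2 libraries.

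Among the dynein heavy chains, Dnah12 of the inner arms had 382 CPM in WT and 371 in Nuc1 ciliated cells, Dnah6 165 and 226, and Dnah9 of the outer arms 132 and 124. Dnah5 and Dnah11, also of the outer arms, had 86.6 and 76.7 and 78.9 and 89.4 CPM. Dnah8 and Dnah17, heavy chains best known from sperm, had no UMI in ciliated cells of either library. The other 8 of the 10 heavy chains were therefore detected in ciliated cells. The intermediate chain Dnai1 had 76.4 CPM in WT and 158 in Nuc1, and its partner Dnai2 had 76.4 and 58.8.

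Of the radial spoke genes, Rsph1, Rsph9 and Rsph10b of the spoke head had 547 and 521, 484 and 530, and 377 and 313 CPM in WT and Nuc1 ciliated cells. Rsph4a, another head protein, had no UMI in any cell kept. Rsph6a, a spoke head protein known from testis, had 0 WT UMIs in ciliated cells, which allows up to 7.64 CPM, and 1.53 CPM in Nuc1. Tekt1 had 395 and 406 CPM, Tekt4 135 and 167, and Tekt2 78.9 and 131. Drc1 and Drc3, subunits of the nexin-dynein regulatory complex, had 280 and 277 and 270 and 224, and Drc7 73.8 and 94.0. All classes of axonemal structure named by the rule were thus present in the ciliated cells of both libraries.

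In all, 46 of the 54 motile genes had a UMI in WT ciliated cells and 49 in Nuc1. A single WT ciliated cell had UMIs of 20 to 45 of the motile genes, with a median of 37, and the Nuc1 cells had 4 to 44 with a median of 36.5. The Nuc1 cell with 4 genes had 891 UMIs in total. After each cell was thinned to 5000 UMIs, which left out 1 Nuc1 ciliated cell, the medians were 23.5 and 24 genes. The motile sum of a cell ran from 3680 to 18903 CPM in WT and from 4066 to 19994 in Nuc1, and its correlation with the transport sum across cells was 0.74 in WT (14 cells) and 0.67 in Nuc1 (94 cells). One WT cell gave 16.3% of all motile UMIs and 23.4% of all transport UMIs of the WT ciliated group, so the WT levels lean on few cells. Cfap58 and Cfap58l1, which RefSeq lists as 1 gene, also had no UMI in any cell kept. Cfap73 and Cfap97d1 had 0 WT UMIs in ciliated cells and 2 and 1 in Nuc1.

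Promoter windows were looked at because these genes were high in the same cells. RefSeq windows of the GRCr8 assembly, from 250 bases before to 50 bases after each start, were matched for 56 of the 67 genes, 55 of them by symbol, and Cfap58 and Cfap58l1 shared 1 window, which left 55 windows. Both strands were searched for the X-box, the site of RFX factors, which are known to drive ciliary genes, and for 2 forkhead cores, TGTTTAC and TGTTTGC, as bound by FOXJ1-type factors. The X-box was searched as the half-site GTTGCC and as a pair, GTNNCC followed within 0 to 3 bases by GGNNAC, and the half-site can lie inside the pair. The half-site was found in 14 of 45 motile windows (31.1%) and 4 of 10 transport windows (40.0%), beside 12.2% of all 33469 windows. The pair was found in 6 motile windows (13.3%) and 2 of 10 transport windows, beside 3.85% of all windows. Either forkhead core was found in 4 motile windows (8.89%) and 2 of 10 transport windows, beside 8.43% of all windows. Among motile genes, the pair occurred in 4 of 38 windows of genes under 10 CPM in collagen-rich cells of 1 or both libraries, that of Cfap58 among the 4, and in 2 of 7 windows of the genes also found in collagen-rich cells (described below). A match says only that these letters are in the window.

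The windows printed are those of 6 detected genes with the pair, and of Cfap126, the gene with the highest level, for comparison. Each line runs from 250 bases before to 30 bases after the start, 5′ to 3′ on the gene's strand, in lower case with the searched motifs in capitals.
Cfap126, chr13:86058892-86059171 (plus strand): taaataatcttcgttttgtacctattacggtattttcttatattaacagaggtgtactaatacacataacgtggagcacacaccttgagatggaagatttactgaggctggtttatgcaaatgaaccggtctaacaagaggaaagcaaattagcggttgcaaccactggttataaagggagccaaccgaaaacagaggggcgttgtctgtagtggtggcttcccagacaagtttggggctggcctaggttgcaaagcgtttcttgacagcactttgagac
Dnah12, chr16:1944502-1944781 (plus strand): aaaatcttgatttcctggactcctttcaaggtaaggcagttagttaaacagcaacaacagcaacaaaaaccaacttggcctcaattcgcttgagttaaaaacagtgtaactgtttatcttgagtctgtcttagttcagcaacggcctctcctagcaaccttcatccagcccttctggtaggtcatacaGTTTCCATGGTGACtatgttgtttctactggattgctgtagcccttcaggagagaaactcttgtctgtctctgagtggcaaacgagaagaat
Cfap206, chr5:54095354-54095633 (minus strand): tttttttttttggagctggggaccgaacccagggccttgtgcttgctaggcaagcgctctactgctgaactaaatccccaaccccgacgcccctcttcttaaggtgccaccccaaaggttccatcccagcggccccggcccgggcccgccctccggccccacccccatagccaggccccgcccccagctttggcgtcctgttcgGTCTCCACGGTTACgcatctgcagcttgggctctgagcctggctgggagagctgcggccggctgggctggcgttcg
Cfap298, chr11:43677353-43677632 (minus strand): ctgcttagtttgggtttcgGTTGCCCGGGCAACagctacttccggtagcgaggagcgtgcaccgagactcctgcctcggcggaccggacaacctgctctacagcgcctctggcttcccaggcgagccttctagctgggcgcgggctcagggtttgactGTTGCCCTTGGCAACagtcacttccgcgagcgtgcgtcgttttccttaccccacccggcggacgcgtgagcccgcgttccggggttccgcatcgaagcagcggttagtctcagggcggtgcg
Rsph9, chr9:22337431-22337710 (plus strand): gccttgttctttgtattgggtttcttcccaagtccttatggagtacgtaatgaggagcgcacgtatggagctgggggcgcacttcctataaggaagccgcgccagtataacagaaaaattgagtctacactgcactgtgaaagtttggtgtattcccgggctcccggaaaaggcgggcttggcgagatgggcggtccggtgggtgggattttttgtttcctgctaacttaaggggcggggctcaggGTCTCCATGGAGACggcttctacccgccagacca
Ift140, chr10:14537216-14537495 (plus strand): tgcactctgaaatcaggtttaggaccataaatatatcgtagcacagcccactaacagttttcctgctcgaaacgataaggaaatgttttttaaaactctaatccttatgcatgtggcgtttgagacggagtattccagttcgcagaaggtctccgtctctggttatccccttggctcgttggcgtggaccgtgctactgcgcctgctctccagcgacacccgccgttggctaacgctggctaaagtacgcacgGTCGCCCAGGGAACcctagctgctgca
Ift22, chr12:25405481-25405760 (minus strand): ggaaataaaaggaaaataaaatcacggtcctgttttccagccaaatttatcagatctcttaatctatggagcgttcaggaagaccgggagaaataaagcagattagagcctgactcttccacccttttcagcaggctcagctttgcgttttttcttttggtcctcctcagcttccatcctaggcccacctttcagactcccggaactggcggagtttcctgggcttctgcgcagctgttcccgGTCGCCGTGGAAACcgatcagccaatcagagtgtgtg
In collagen-rich cells Dnah12 had 0.172 CPM in WT and 0.221 in Nuc1, and Cfap206 had 0 UMIs in both. In astrocyte-like cells Dnah12 had 9.08 and 23.1 CPM, and Cfap206 had 0 and 2.28. In Nuc1 collagen-rich cells Cfap298 had 63.4 CPM, Ift22 18.1, Rsph9 10.1 and Ift140 3.53. The pair therefore stood in windows of genes nearly absent from collagen-rich cells and of genes counted there. The Cfap126 window held none of the searched letters.

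The comparison of ciliated with astrocyte-like cells asked how far the members separate these 2 cell types within a library. A gene entered when it had at least 20 UMIs in both sums together, and its log2 ratio was taken after 0.5 UMI was added, scaled to the size of each sum. In WT, 40 of the 54 motile genes entered, 18 of them on their astrocyte-like UMIs alone, and in Nuc1 44 entered, 39 on their astrocyte-like UMIs alone. All 40 and all 44 were at least 2-fold higher in ciliated cells, as were 16.1% of all genes in WT and 18.2% in Nuc1. Their median log2 ratio was 4.57 in WT and 4.04 in Nuc1, while the median over all genes was 0.036 and 0.19. The WT median was 3.63 after thinning to 5000 UMIs a cell, and the Nuc1 median was 5.24 without astrocyte-like cells rich in ciliated markers. All 13 transport genes entered, each on its astrocyte-like UMIs alone, and were also at least 2-fold higher. Their median log2 ratio was smaller, 2.39 in WT and 2.29 in Nuc1. Since part of the motile genes needed their ciliated UMIs to enter, the medians of the 2 classes are not on like terms.

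At the top in WT stood Cfap206, a protein at the base of a radial spoke, which had 140 CPM in ciliated cells and 0 of 2864828 UMIs in astrocyte-like cells. With 3 UMIs set as the most a count of 0 allows, it was at least 134-fold higher. Next were Cfap44, with a log2 ratio of 8.21 (6.85 to 11.80, 117 against 2 UMIs), and Dnah6, with 7.98 (6.36 to 14.21, 65 against 1 UMI). In Nuc1 the highest were Cfap53 with 6.01 (5.31 to 6.99), Cfap44 with 5.89 (5.49 to 6.38) and Cfap206 with 5.65 (5.05 to 6.42). The lowest motile ratios were those of Cfap410, a protein linked to cilium formation, with 1.27 in WT (0.76 to 1.76) and 1.34 in Nuc1 (1.10 to 1.57), and Cfap97, with 1.78 and 1.57. Next came Cfap100 in WT, with 1.93, and Cfap36 in Nuc1, with 2.14. The upper end of the range was thus lower in Nuc1, and the lower end was held by nearly the same genes.

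Among the transport genes, Ift74 of the IFT-B core had the highest WT ratio, 3.24 (2.96 to 3.54), followed by Ift88 with 2.88 and Ift80 with 2.60. In Nuc1 Ift81, the partner of Ift74, had the highest ratio, 2.93 (2.60 to 3.29), followed by Ift88 with 2.65 and Ift74 with 2.53. The lowest in both libraries were Ift122 of IFT-A, with 1.19 (0.53 to 1.82) in WT and 1.49 in Nuc1, Ift52, with 1.54 and 1.19, and Ift57, with 1.57 and 1.56. No transport gene reached the motile median in either library, although the 2 classes did not enter on like terms.

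**Figure D2:**
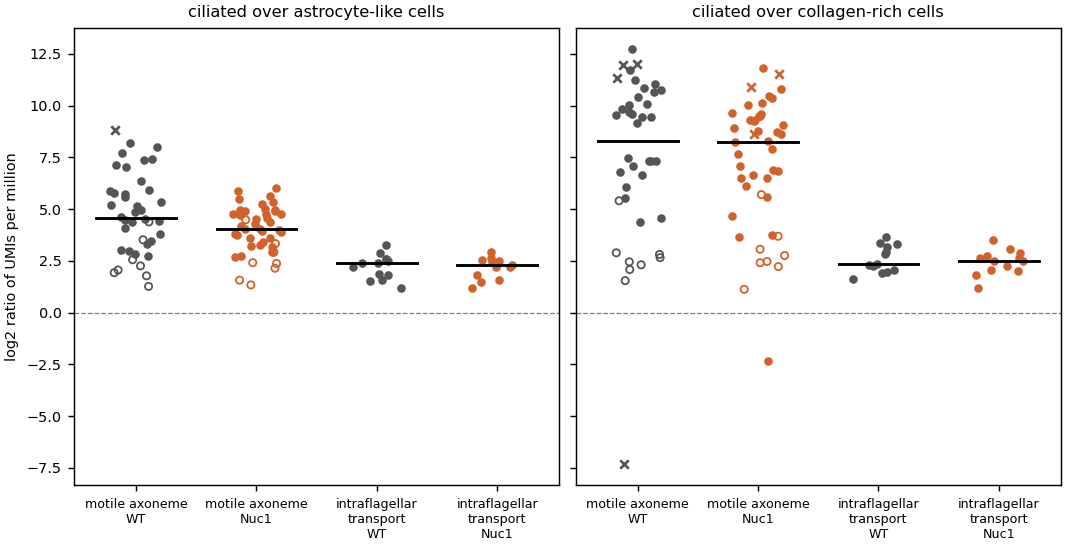
Log2 ratio of CPM in ciliated cells over astrocyte-like cells (left) and over collagen-rich cells (right), 1 point per gene with at least 20 UMIs, by gene class and library (grey WT, orange Nuc1); black lines are medians, open circles the 8 motile genes also found in collagen-rich cells, and crosses genes with 0 UMIs in 1 of the sums. The motile medians of 4.57 and 4.04 on the left and 8.31 and 8.24 on the right lie above the transport medians, which stay between 2.29 and 2.49. Part of the motile genes needed their ciliated UMIs to enter, so the medians of the classes are not on like terms.

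Against collagen-rich cells the motile genes separated further. Of the 40 WT and 45 Nuc1 motile genes that entered, 39 and 44 were at least 2-fold higher in ciliated cells, beside 21.8% and 19.5% of all genes, and the exception was Rsph6a. The median log2 ratio was 8.31 in WT and 8.24 in Nuc1, where 18 and 20 genes entered on their collagen-rich UMIs alone. The WT median was 5.53 after thinning to 5000 UMIs a cell and 6.08 with a minimum of 100 UMIs, so its size depends on how low counts are treated. Cfap126 had 0.138 CPM in WT collagen-rich cells (4 UMIs) and 0.706 in Nuc1 (16 UMIs), Tekt4 had 0 WT UMIs and was at least 1307-fold higher in ciliated cells, and Dnah5 had 0 UMIs in collagen-rich cells of either library and was at least 839-fold and 579-fold higher. The transport medians, 2.33 and 2.49, hardly differed from those against astrocyte-like cells. Here Ift81 led in both libraries, with 3.68 (3.14 to 4.19) and 3.50 (3.21 to 3.81), and Ift52 was lowest, with 1.61 (1.13 to 2.07) and 1.18 (0.92 to 1.44).

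A set of 8 motile genes was found at 10 or more CPM in collagen-rich cells of both libraries, a limit set on these values: Cfap36, Cfap298, Cfap20, Cfap410, Cfap97, Cfap100, Rsph9 and Tekt2. Just inside that limit were Tekt2, with 10.1 CPM in the lower library, and Rsph9, with 10.1, and just outside were Tekt1, with 5.81, and Rsph6a, with 5.40. Cfap36, which binds the small GTPase ARL3, had 84.4 CPM in WT and 86.5 in Nuc1 collagen-rich cells, and Cfap20, a protein of the doublet wall, had 63.7 and 60.4. Together the 8 had 309 and 293 CPM in collagen-rich cells, 421 and 386 in astrocyte-like cells and 2222 and 2157 in ciliated cells. The other 46 motile genes, called restricted below, had 31.6 and 46.9 CPM in collagen-rich cells, 242 and 424 in astrocyte-like cells, and 7403 and 7728 in ciliated cells. Because the split used these levels, it describes them and is not a result.

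Within the collagen-rich cells the restricted genes were not spread evenly. The cluster led by Inmt and Cyp26b1 had 56.0 CPM of restricted genes in its 53 WT cells and 70.3 in its 367 Nuc1 cells, and the other 4 clusters had 23.9 to 34.5 in WT and 30.5 to 43.2 in Nuc1. Tekt1 had 14.3 CPM (10 UMIs) in WT and 17.04 (97 UMIs) in Nuc1 cells of that cluster, against 3.89 to 7.08 elsewhere among the collagen-rich clusters. Cfap45 had 17.2 (12 UMIs) and 14.8 (84 UMIs) there, against 0.540 to 4.30 elsewhere. Both genes were thus higher in that cluster in each library, and both were chosen after their values were seen.

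Rsph6a was the only member with a lower level in ciliated than in collagen-rich cells of both libraries. It had 5.40 CPM in WT collagen-rich cells (157 UMIs) and 7.94 in Nuc1 (180 UMIs), and 0.349 and 1.74 in astrocyte-like cells. In WT the 0 UMIs of the ciliated sum allow up to 7.64 CPM, so that a lower level could not be shown at this depth, while in Nuc1 the log2 ratio was -2.34 (-4.66 to -0.80) on 3 ciliated UMIs. In RefSeq's annotation a long non-coding RNA, a tRNA and a pseudogene overlap Rsph6a.

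In the thinned cells, 100% of WT and of Nuc1 ciliated cells had a UMI of a restricted motile gene. The share was 58.3% in WT astrocyte-like cells (exact binomial interval 48.5 to 67.7) and 67.5% in Nuc1 (62.4 to 72.4), and 14.4% (12.8 to 16.2) and 20.8% (18.6 to 23.1) in collagen-rich cells. Without thinning the shares were 95.4% and 96.7% of astrocyte-like cells at a median of 25925 and 24305 UMIs, and 38.3% and 51.8% of collagen-rich cells at 13721 and 15157 UMIs. Collagen-rich cells are not known to carry motile cilia and serve as the background for these shares. Astrocyte-like cells lay above that background in both libraries, and cluster 8, with 77.3% and 62.1%, did too. The restricted genes were set by low levels in collagen-rich cells, so this background was low by that choice. For all 54 motile genes the thinned shares were 91.7% in WT and 94.6% in Nuc1 astrocyte-like cells. In collagen-rich cells they were 82.4% and 79.5%, a smaller gap.

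The level in astrocyte-like cells was not a fixed share of the level in ciliated cells. Among the restricted genes with at least 20 ciliated UMIs, it ran from 0% to 13.7% in WT (median 2.38%, 29 genes) and from 1.47% to 15.3% in Nuc1 (median 4.93%, 36 genes). In WT the lowest were Cfap206 at 0%, Dnah6 at 0.211%, Cfap44 at 0.234% and Dnah5 at 0.403%, followed by Cfap126 at 0.447%. The highest in WT were Cfap300, a dynein assembly protein, at 13.7%, Drc3 at 12.8% and Drc1 at 10.1%, and in Nuc1 they were Cfap300 at 15.3%, Rsph3 at 14.5% and Drc1 at 13.3%. The transport genes ran from 10.5% for Ift74 to 43.6% for Ift122 in WT, and from 13.03% for Ift81 to 43.6% for Ift52 in Nuc1. The heavy chains that entered ran from 0.211% to 3.16% in WT and from 2.16% for Dnah6 to 9.31% for Dnah9 in Nuc1, below Drc1, Drc3 and Cfap300 in both libraries. Drc7, at 1.42% in WT and 3.58% in Nuc1, lay within the range of the heavy chains.

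**Figure D3:**
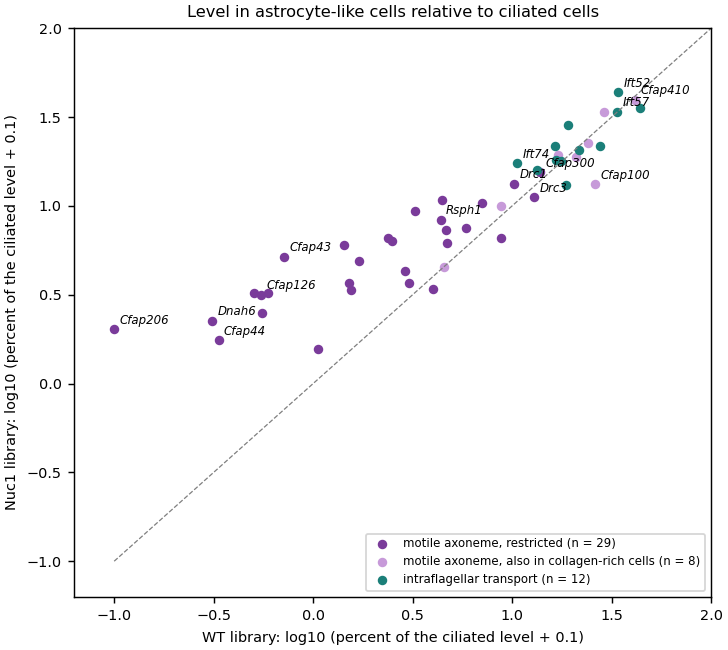
Level in astrocyte-like cells as a percent of the level in ciliated cells, WT library (x axis) against Nuc1 library (y axis), both as log10 of the percent plus 0.1, for genes with at least 20 ciliated UMIs in both libraries; the dashed line marks equal percents. Transport genes and most of the 8 motile genes found in collagen-rich cells lie at the upper right, while restricted genes such as Cfap206, Dnah6, Cfap44, Cfap43 and Cfap126 lie left of and above the line.

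A minority of astrocyte-like cells carried much of the Nuc1 signal. In Nuc1, 30 of 359 astrocyte-like cells had 20 to 99 restricted UMIs and 4 had 100 or more, and they held 36.5% and 11.8% of the restricted UMIs of the group. In WT, 3 of 109 cells had 20 to 99 and none had 100 or more, and the 3 held 14.6%. The lowest ciliated cell had 2448 CPM of restricted genes in WT and 2082 in Nuc1, and 0 WT and 12 Nuc1 astrocyte-like cells reached it. The highest collagen-rich cell had 345 CPM of restricted genes in WT and 628 in Nuc1. The sum of the 14 measured markers of ciliated cells, which are no members, moved with these levels. It was 323 CPM in WT and 629 in Nuc1 astrocyte-like cells. In ciliated cells it was 8604 and 9190, and in collagen-rich cells 12.9 and 13.3. Ccno, a multiciliation regulator outside these markers, went the other way in astrocyte-like cells, with 35.3 CPM (101 UMIs) in WT and 2.17 (20 UMIs) in Nuc1. The markers Tmem212, Sntn and Spag6 were at 0 in the 2864828 UMIs of WT astrocyte-like cells. None of the 14 was at 0 in the larger Nuc1 sum of 9206202 UMIs, and Spag6 was also at 0 in WT ciliated cells. Astrocyte-like cells above 300 CPM of the 14 markers (49 of 109 in WT, 216 of 359 in Nuc1) were then left out. The restricted sum without them was 150 CPM in WT (132 to 170) and 180 in Nuc1 (166 to 194). These sums were still above the 31.6 and 46.4 CPM of the collagen-rich cells treated likewise, but the restricted genes were chosen for low levels there. For all 54 motile genes the sums without the rich cells were 531 CPM in WT and 491 in Nuc1 astrocyte-like cells. In collagen-rich cells they were 341 and 339.

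**Figure D4:**
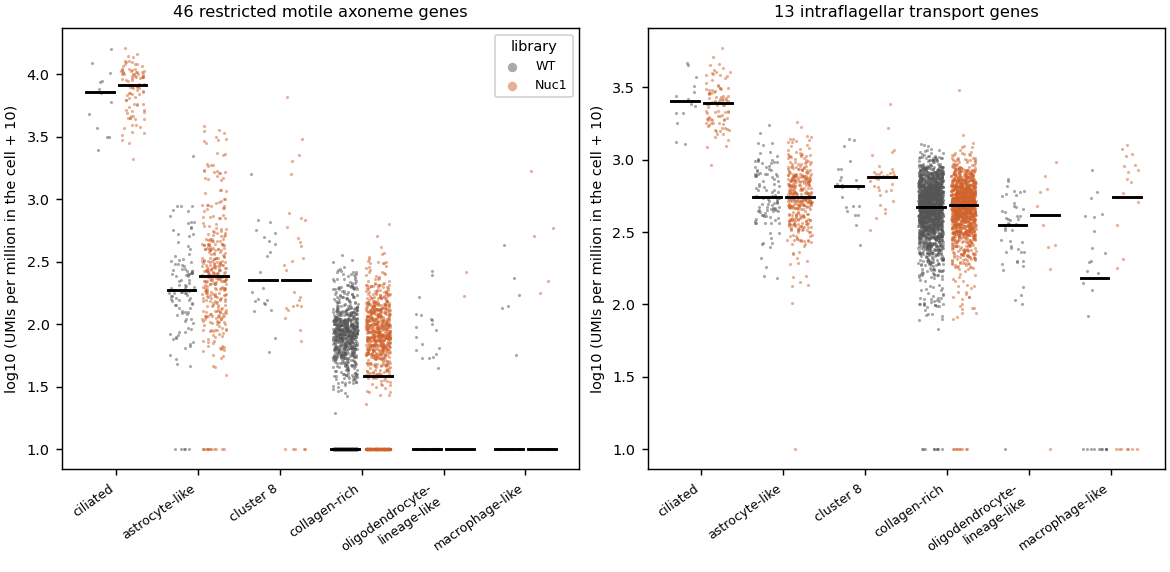
CPM in each cell for the 46 restricted motile genes (left) and the 13 transport genes (right), as log10 of the value plus 10, by cell group and library (grey WT, orange Nuc1); black lines are medians. Ciliated cells stand above all collagen-rich cells on the left, some Nuc1 astrocyte-like and cluster 8 cells reach the lowest ciliated cells, and on the right the other groups lie closer to the ciliated cells.

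The transport genes were close to equal at the median in astrocyte-like and collagen-rich cells. Their median log2 ratio of astrocyte-like to collagen-rich cells was 0.092 in WT and 0.17 in Nuc1, beside medians of -0.18 and -0.34 over all genes. The Nuc1 transport median was -0.10 without cells rich in ciliated markers. Summed over the 13 genes, the log2 ratio was 0.34 (0.26 to 0.41) in WT and 0.26 (0.22 to 0.31) in Nuc1, higher in astrocyte-like cells. Of the 13 genes, 3 were at least 2-fold higher in WT and 1 in Nuc1, beside 14.8% and 15.1% of all genes. Ift57, a peripheral IFT-B subunit, stood out with 144 and 96.5 CPM in astrocyte-like cells against 41.4 and 38.9 in collagen-rich cells, a log2 ratio of 1.80 (1.64 to 1.96) in WT and 1.31 (1.18 to 1.45) in Nuc1. Ift140 of IFT-A had 1.29 and 0.70, and Ift81 had 1.25 and 0.57. Ift88, the transport gene best known from primary cilium defects, was lowest with -0.65 (-1.29 to -0.08) and -0.39 (-0.75 to -0.04). Ift20, which also serves at the Golgi, had the highest transport level of Nuc1 astrocyte-like and collagen-rich cells, at 113 and 111 CPM. Ift140 had the lowest transport level of ciliated, astrocyte-like, collagen-rich and cluster 8 cells in both libraries.

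Cluster 8, whose WT cells lacked Ttr, lay between ciliated and collagen-rich cells, with motile sums of 912 and transport sums of 667 CPM in WT and of 1147 and 758 CPM in Nuc1. Its restricted sums were 350 and 588 CPM. One cell gave 22.6% of the restricted UMIs in WT and 19.03% in Nuc1, and 3 of the 32 Nuc1 cells reached the level of the lowest ciliated cell. Cfap126 had 44.8 CPM (21 UMIs) and 117 (74 UMIs), and Rsph9 had 81.0 and 99.3. The oligodendrocyte-lineage-like group had restricted sums of 39.8 and 37.5 CPM and transport sums of 350 and 356 CPM, with 0 UMIs of any Dnah gene in either library. In the macrophage-like group of Nuc1, whose median was 1807.5 UMIs per cell, 1 of 22 cells held 85.2% of the restricted UMIs, so its sum of 362 describes that cell.

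The comparison of the 2 libraries in ciliated cells asked how the members differed between the WT and the Nuc1 library, and covers 14 WT and 94 Nuc1 cells. With 1 library per genotype, genotype and library cannot be told apart. The motile genes had a median log2 ratio of Nuc1 to WT of 0.035 and the transport genes of -0.15, beside -0.021 over all genes, and the motile median ran from -0.033 to 0.29 over the alternatives tried. One of 44 motile genes was at least 2-fold higher in Nuc1 and none lower, beside 7.47% and 4.78% of all genes, and no transport gene was either. Dnai1 had the highest ratio, with 30 UMIs (76.4 CPM) in WT and 309 (158 CPM) in Nuc1, a log2 ratio of 1.04 (0.51 to 1.64). Dnah2, an inner arm heavy chain, had 0.86 (0.17 to 1.63) and Tekt3 0.81 (0.11 to 1.61). The lowest motile ratios, those of Cfap99 (-0.58), Rsph3 (-0.41) and Cfap100 (-0.40), had intervals that reach past 0. Of the transport genes, Ift74 had 588 CPM in WT and 355 in Nuc1 (-0.73, -0.95 to -0.51), Ift57 had 428 and 285 (-0.59, -0.84 to -0.33), and Ift52 had -0.43 (-0.94 to 0.10). Ift46, Ift122 and Ift22 were highest, with 0.28, 0.24 and 0.22, and intervals that include 0. Counting intervals hold no spread between animals, and 1 WT cell gave 51 of the 231 WT UMIs of Ift74.

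**Figure D5:**
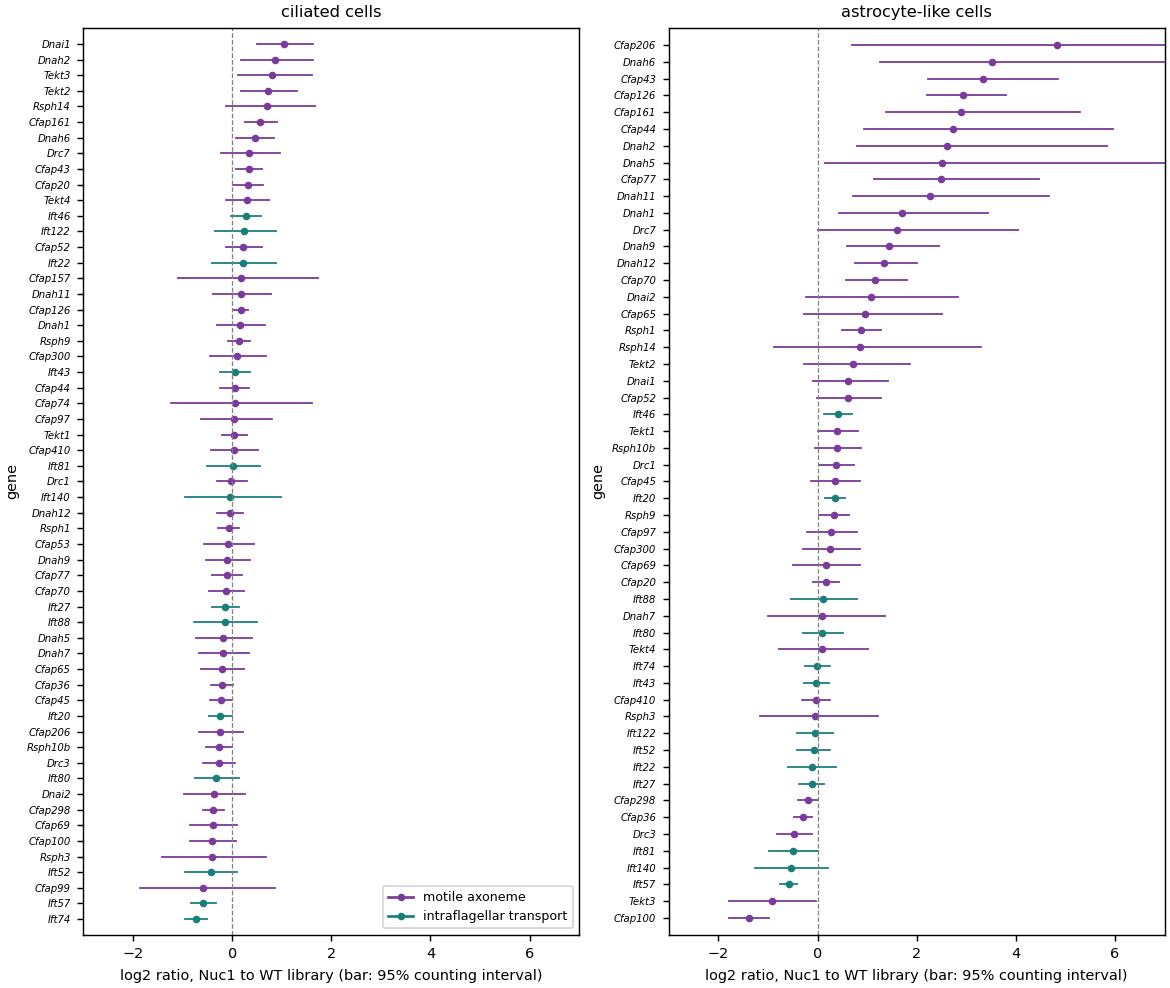
Log2 ratio of the Nuc1 to the WT library for each gene with at least 20 UMIs, in ciliated (left) and astrocyte-like (right) cells, with bars for the 95% counting interval (drawn to 7 at most) and the gene class by colour. In ciliated cells the points lie between -0.73 and 1.04, whereas in astrocyte-like cells many motile genes lie above 1 and the transport genes stay between -0.58 and 0.41.

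In astrocyte-like cells the 40 motile genes that entered had a median log2 ratio of Nuc1 to WT of 0.66. Of these, 16 were at least 2-fold higher and 1 lower in Nuc1, beside 4.17% and 7.14% of all genes. Only 18 of the 40 entered on WT UMIs alone, while all 13 transport genes did. The rest needed UMIs of the larger Nuc1 sum, which lets in genes low in WT, so the medians of the 2 classes are not on like terms. Summed over all members without that filter, the log2 ratio was 0.29 (0.22 to 0.36) for the 54 motile genes. For the transport genes it was -0.063 (-0.14 to 0.016). The 13 transport genes had a median of -0.056, with none at least 2-fold higher or lower, and this median was 0.24 and 0.26 under the 10% mitochondrial limit with new clusters and under groups set without clustering, and 0.11 with TMM scaling. Cfap206 had 0 UMIs in WT and 21 in Nuc1, Dnah6 had 1 and 45 (3.52, 1.26 to 9.14), and Cfap43 had 6 and 201 (3.33, 2.23 to 4.85). Cfap126 had 15 UMIs in WT and 373 in Nuc1, a log2 ratio of 2.93 (2.21 to 3.80). Without the cells rich in ciliated markers the motile median was 0.037, over 21 genes in place of 40. Dnah6 then had 0 UMIs in both libraries and Cfap206 had 1 in Nuc1, so these 2 medians cover different genes. Those cells were picked by markers that vary with the members, and the reason for the change was not tested. It also moved with the mitochondrial limit. The median was -0.13 when the cells of these groups above 10% mitochondrial UMIs were left out. It was 1.51 when the remaining cells were clustered anew, which gave no separate ciliated group. The astrocyte-like group then held 42 cells in place of 17 in WT, although 0 WT ciliated cells passed the limit. In Nuc1 it held 188 in place of 149, and 14 Nuc1 ciliated cells passed. Cells other than ciliated ones thus joined it in both libraries, and their part in the shift was not tested. The lowest ratios were those of Cfap100, a protein of the inner dynein arms, with 97 UMIs (33.9 CPM) in WT and 119 (12.9 CPM) in Nuc1 (-1.38, -1.79 to -0.99), Tekt3 (-0.92, -1.79 to -0.03) and Drc3 (-0.47, -0.82 to -0.12). Without the cells rich in ciliated markers Cfap100 had -1.67 (-2.34 to -1.05). Of the transport genes, Ift57 was lowest with -0.58 (-0.75 to -0.41), followed by Ift140 (-0.53) and Ift81 (-0.49), while Ift46 (0.41, 0.13 to 0.70), Ift20 (0.34, 0.14 to 0.55) and Ift88 (0.11) were highest. Ift57 was therefore lower in the Nuc1 library in both ciliated and astrocyte-like cells, and in collagen-rich cells its ratio was -0.089 (-0.22 to 0.04).

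In collagen-rich cells the motile sums of 341 and 340 and the transport sums of 480 and 484 CPM were nearly the same in WT and Nuc1. The restricted genes had 31.6 (29.6 to 33.7) and 46.9 (44.1 to 49.8). Among single genes, Cfap126 had the highest log2 ratio of Nuc1 to WT, 2.21, on 4 and 16 UMIs, followed by Dnah11 and Rsph1, and Dnai2, Cfap100 and Tekt2 had the lowest. Of the transport genes, Ift20, Ift81 and Ift22 had the highest ratios, up to 0.23, and Ift43, Ift88 and Ift80 the lowest, down to -0.38. Median mitochondrial shares of UMIs were 13.2% in ciliated cells of both libraries, 12.9% and 10.96% in astrocyte-like and 9.08% and 8.96% in collagen-rich cells, and their part in these differences was not tested.

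Other parts of the cilium, from gene lists that hold no member, were compared in the same way. In ciliated over astrocyte-like cells, all 8 measured dynein docking and ruler genes were at least 2-fold higher in each library, with a median log2 ratio of 4.96 in WT and 4.43 in Nuc1. So were 8 of 8 and 9 of 9 central pair genes (medians 4.38 and 4.11) and 12 of 13 and 13 of 13 dynein assembly genes (2.71 and 2.99). Transport proteins under other symbols were at least 2-fold higher in 7 of 7 and 8 of 8 cases, with medians of 2.30 and 2.17, close to those of the Ift genes. The transition zone list gave 11 of 11 in each library (2.05 and 2.20), the transport motors 6 and 7 of 8 (2.16 and 1.97), the BBSome 7 of 9 and 7 of 10 (1.84 and 1.43), and the multiciliation regulators 8 of 8 and 8 of 10 (1.69 and 1.76). Of the dynein light and light intermediate chains, some of which also serve cytoplasmic dynein, 4 of 7 were at least 2-fold higher in each (1.66 and 1.42). Of 12 primary cilium signalling genes listed, 2 entered in WT and 8 in Nuc1, and 1 of each was at least 2-fold higher (0.73 and 0.21), which in Nuc1 is near the 18.2% of all genes. Between the libraries, the medians of all these lists in ciliated cells lay between -0.30 and 0.14. In astrocyte-like cells they lay between -0.53 (primary cilium signalling) and 0.73 (central pair). There 3 of 10 multiciliation regulators were at least 2-fold lower in Nuc1 and 0 higher (median -0.33), beside 7.14% and 4.17% of all genes. The astrocyte-like cells also differed in markers of dividing cells, with a sum of 8 such markers of 424 CPM in WT and 64.4 in Nuc1. The part of this difference in the ratios of Nuc1 to WT was not tested.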

How the data were processed

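Per the labels, the authors made 2 droplet libraries with the 10x Genomics 3′ v3.1 kit, and their processing notes name Cell Ranger 3.1.0, STAR 2.7 and Seurat 3.1.0 and 3.1.1. The genome build is not given in the sources used here. The authors deposited raw UMI counts per gene and cell barcode, with 1 UMI counted per captured molecule, and no annotation of cell types was used here.

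Barcodes under 500 genes, or with over 20% of their UMIs from 13 mitochondrial genes, were dropped, which left 1968 WT and 1793 Nuc1 cells. Scrublet in scanpy 1.11.5 marked 7 and 13 doublets (0.356% and 0.725%), which were removed. This is below the expected 2%, so doublets may remain. Libraries were joined with Seurat 5.3.0 (R 4.3.3) over 2000 variable features without the 67 genes, 30 principal components and resolution 0.5. A cluster took the name of the marker list with the most members, at least 3, among its 30 leading genes, and unnamed, fibroblast-like or dividing clusters with fibroblast marker levels above the mean were called collagen-rich. Raw counts were summed per group and library, without a count model. Ratios were taken for genes with at least 20 UMIs in the 2 sums together, with 0.5 UMI added. Exact 95% Poisson, binomial and conditional intervals (scipy 1.17.1) and the floor of 3 UMIs for a count of 0 cover counting error only. Shares of cells were compared after thinning to 5000 UMIs. The code was tested on simulated data.

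The text names the genes with the highest and lowest ratios and levels of each class, and any other gene was chosen after its values were seen. The 67 genes and all gene lists were chosen with earlier results of these data known. Alternatives changed the filters, resolution, naming, scaling (edgeR 4.0.16 TMM factors), thinning and minimum UMIs. The promoter window of 1 further gene is not reported here.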

Additional observations from a re-analysis of the deposited data

Results flagged for a closer look

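Tekt3, a tektin of the doublet microtubules, stood on opposite sides of 0 in the comparison of the Nuc1 with the WT library. Its log2 ratio was 0.81 (0.11 to 1.61) in ciliated cells, on 158 Nuc1 and 18 WT UMIs, and -0.92 (-1.79 to -0.03) in astrocyte-like cells, on 32 Nuc1 and 19 WT UMIs. The difference between these ratios was not tested.

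The barcodes left out by the filters held UMIs of the 46 restricted motile genes. In Nuc1 the level was 974 UMIs per 1000000 (917 to 1032) in 149 barcodes, and in WT 209 (177 to 246) in 146 barcodes. Of these barcodes, 17 in Nuc1 and 4 in WT had UMIs of at least 4 ciliated markers, and they held 982 of the 1120 Nuc1 and 113 of the 147 WT restricted UMIs. Of those, 12 and 3 were above 20% mitochondrial UMIs.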

How the results depend on the processing

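For 14 medians, 188 values were recomputed under alternatives, of which 172 moved by less than the interval of the median, 15 moved further and 1 changed sign. All values are median log2 ratios. Thinning to 5000 UMIs gave 3.63 for motile genes in WT ciliated over astrocyte-like cells, 5.53 over collagen-rich cells, and 0.29 and 0.27 for Nuc1 over WT in ciliated and astrocyte-like cells. A minimum of 100 UMIs gave 6.08 for WT ciliated over collagen-rich cells. Without cells rich in ciliated markers the motile median in Nuc1 ciliated over astrocyte-like cells was 5.24, that of Nuc1 over WT in astrocyte-like cells 0.037, and the transport median of Nuc1 astrocyte-like over collagen-rich cells -0.10. With at most 10% mitochondrial UMIs and new clusters, Nuc1 over WT in astrocyte-like cells gave 1.51 for motile and 0.24 for transport genes, and Nuc1 astrocyte-like over collagen-rich cells gave 0.61 for transport genes. With the same limit and the groups kept, an alternative chosen after seeing the data, the motile median of Nuc1 over WT in astrocyte-like cells was reversed, at -0.13, and the transport median in Nuc1 ciliated over astrocyte-like cells was 2.75. Groups set by markers without clustering gave 0.23 for motile and 0.26 for transport genes in Nuc1 over WT astrocyte-like cells, and TMM scaling gave 0.11 for the latter. The causes of these shifts were not tested. The 10% limit left 0 of 14 WT ciliated cells and, with the groups kept, 17 of 109 WT astrocyte-like cells. Neither new clusters under this limit nor groups set without clustering gave a ciliated group. Leaving out the 8 motile genes found in collagen-rich cells was also chosen after seeing the data. No paired analysis was possible because there was a single library of WT and a single one of Nuc1, so none could be left out either. A count of 0 allows 7.64 UMIs per 1000000 in the WT ciliated sum and up to 40.2 in the Nuc1 macrophage-like sum.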

Other observations

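Over the restricted motile genes, Pearson's correlation of the log2 levels in ciliated and in astrocyte-like cells was 0.45 in WT (28 genes) and 0.85 in Nuc1 (36 genes). The genes share the same libraries and WT astrocyte-like UMIs were few, and the difference between these values was not tested. Drc1, a subunit of the nexin-dynein regulatory complex, had the highest ratio of astrocyte-like to collagen-rich cells among motile genes in WT, 7.12 on the log2 scale (6.08 to 9.02, 81 against 5 UMIs), and 6.42 in Nuc1 (5.59 to 7.67, 338 against 9 UMIs). Tekt2 went the other way, with -2.03 (-3.11 to -1.15) in WT and -0.81 (-1.27 to -0.37) in Nuc1.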
